A study of Mus musculus with 8 samples.

Results

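The genes described are 38 cathepsins and other lysosomal genes of mouse liver, taken as a list of symbols, and every probe of the authors' deposited table that carries 1 of those symbols and is not a control was followed. All 38 genes had a probe, 64 probes of the 41174 on the array, and 34 of the genes could be tested among 16753 genes and unnamed probes. The tested samples were 4 livers labelled miR-223KO and the controls were 4 livers labelled WT. Both groups were male, on a C57BL/6J background, and had eaten a high-fat diet for 3 months, so the diet was shared and no other feed was compared. How the miR-223KO allele was made, which cells lacked the microRNA and how old the animals were are not given in the sources used here. Nothing in the labels ties the 8 samples to separate animals, and a p-value below therefore speaks of the spread among these samples, which may be technical. Whole liver RNA was labelled with Cy5 on each of 8 Agilent 2-colour arrays and set against a common mouse RNA in Cy3, and a log2 ratio below is liver over that common RNA. A difference or log2 fold change is miR-223KO minus WT on the log2 scale.

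Lysosomes are acidic compartments in which hydrolases break down proteins, glycans and lipids brought in by endocytosis and autophagy. The proton pump V-ATPase keeps them acidic, most soluble hydrolases travel there with a mannose 6-phosphate tag, and the transcription factor TFEB switches on many of their genes through a short promoter element. In liver these genes are used by hepatocytes and by macrophages, and macrophages hold some cathepsins, cathepsin S among them, at high levels. miR-223 is a microRNA of myeloid cells. Whole liver mixes all these cells, so fewer cells of a type and less RNA per cell cannot be told apart in any value below.

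The arrays carried 0 probes for Mir223, so the loss of the microRNA could not be checked on them. Its mature sequences, from RefSeq on GRCm38.p6, are shown because the group labels name this microRNA, with the seed (bases 2 to 8) in capitals.
mmu-miR-223-3p: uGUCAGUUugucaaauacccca
mmu-miR-223-5p: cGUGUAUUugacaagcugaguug
They lie on the plus strand at chrX:96242884-96242905 and chrX:96242842-96242864. No search for their sites in the lysosomal genes was made.

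The promoter element of TFEB and its relatives was searched in RefSeq promoters (GRCm38.p6), each 250 bases before to 50 after a start, on both strands. The letters TCACGTG were present for 11 of the 33 listed genes with a promoter entry (33.3%), against 4.29% of all 27025 genes. The shorter CACGTG inside it was present for 13 of 33 (39.4%), against 8.09% of all genes. The windows below stand for a protease, a glycan hydrolase, a membrane protein and an ion channel, with TCACGTG in capitals and each written in the direction of its gene.
Ctsd: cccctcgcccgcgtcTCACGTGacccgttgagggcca
Gaa: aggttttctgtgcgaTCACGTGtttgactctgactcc
Lamp1: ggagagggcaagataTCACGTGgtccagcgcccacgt
Mcoln1: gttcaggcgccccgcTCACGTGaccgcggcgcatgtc
They lie at chr7:142387905-142387941 on the minus strand for Ctsd and, on the plus strand, at chr11:119267807-119267843 for Gaa, chr8:13159084-13159120 for Lamp1 and chr8:3500458-3500494 for Mcoln1. The 10 tested genes with TCACGTG had a median log2 fold change of 0.13 and the 21 without it one of -0.011. With CACGTG the order was the other way, -0.028 for the 12 genes with it and 0.028 for the 19 without. Neither split was tested. These letters are a description of the promoters and do not say where a factor bound.

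Before the values, 2 features of the arrays bear on them. The Cy3 RNA, labelled as mixed mouse tissue, gave signals close to those of liver across probes. Its mean log2 signal followed that of Cy5 with r = 0.984 over 17204 probes. In that description the channels share each probe's own brightness. All 5 liver markers were above background in Cy3 on all 8 arrays. Of 20 markers of brain, muscle, kidney, lung and testis 9 were. Myh6 and Prm1, markers of muscle and testis, were above background in Cy5 on all 8 arrays too. This count therefore does not tell liver from mixed tissue. Alb had a median processed signal of 231000 in Cy3 and 643000 in Cy5, and Ttr one of 13500 and 10700. What the Cy3 RNA was made from was not tested. Scanner outlier flags, which took spots out, fell on bright probes, on 7 of 7 listed probes with a mean log2 signal of 12 or more, 11 of 15 at 10 to 12, and 5 of 42 under 10. They left Ctsh, Lamp1 and Psap without a test, and their values with flagged spots kept are given below. Atp6v0d2, a pump subunit best known from osteoclasts and macrophages, was above background on 0 arrays and has no measured level here. Between 49.5% and 69.8% of spots were well above background in Cy5, and the number of arrays limits the precision. On slide 2 the share was 53.2% and 49.5% for WT replicates 3 and 4, against 63.5% and 65.8% for miR-223KO replicates 3 and 4. On slide 1 it was 66.1% and 69.8% for WT replicates 1 and 2, against 64.1% and 53% for miR-223KO replicates 1 and 2. Whether this share bears on the within-slide differences below was not tested.

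None of the 34 tested lysosomal genes passed the test between miR-223KO and WT liver. In limma 0 of 34 passed an adjusted p of 0.05, with a smallest adjusted p of 0.98, where 0.0119% of all tested features passed. At an unadjusted p under 0.05 stood 3 of 34, all higher in miR-223KO (Ctss, Tpp1 and Arsa), beside 4.67% of all features, and no test of that difference was made. In 0 of 34 did the miR-223KO and WT values lie apart without overlap, beside 3.09% of all features. The differences ran from -0.53 (Ctsl) to 0.64 (Ctss), 17 above and 17 below 0, with a median of -0.0027, against -0.0096 over all features. Their typical size was also that of the array at large, a median absolute difference of 0.16, against 0.15. The median standard error (SE) of a gene's difference was 0.21, and the 95% intervals reached a median of 0.44 to either side. For 29 of the 34 genes the interval excluded a change of 1 (2-fold) in either direction, and for Ctsa, Ctsl, Ctss, Lamp2 and Tpp1 it did not.

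**Figure D1:**
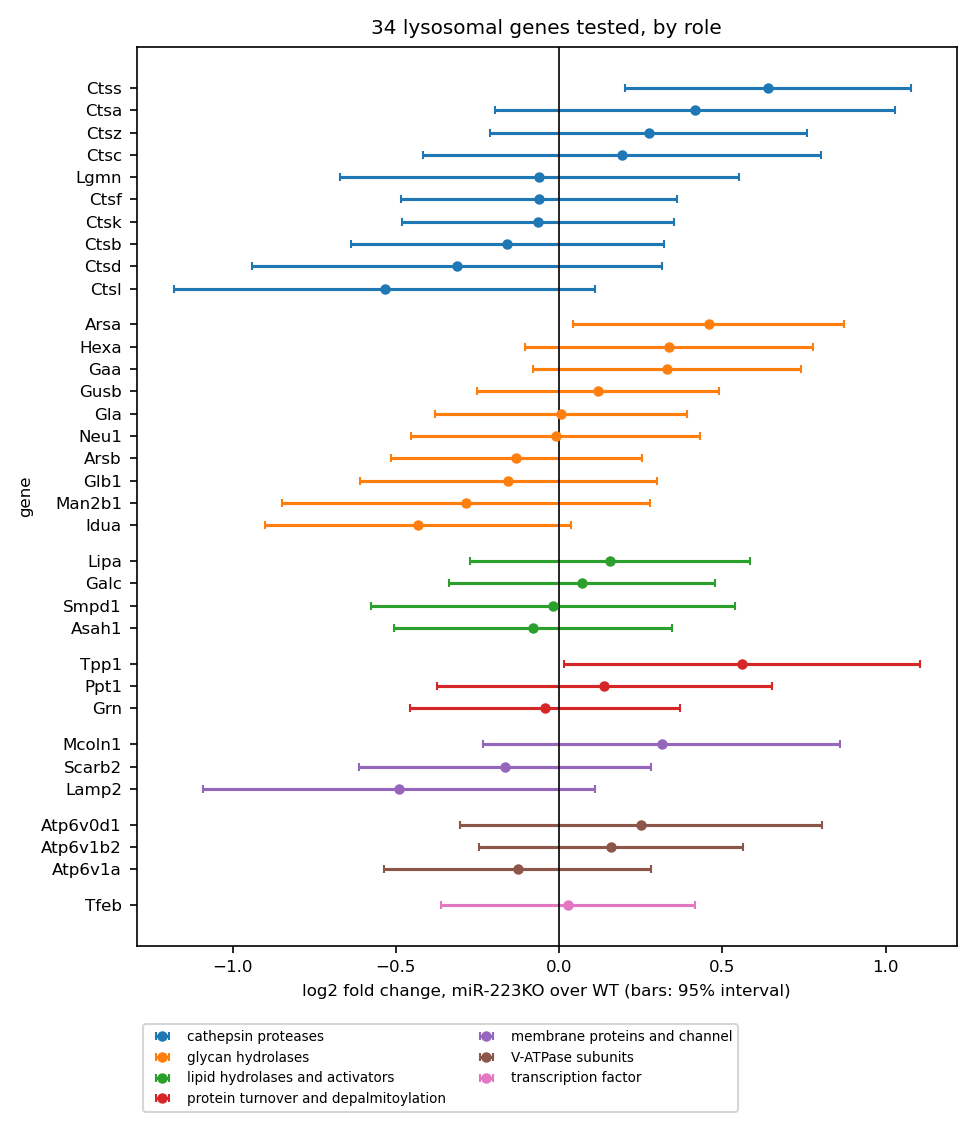
Log2 fold change of each tested lysosomal gene, miR-223KO over WT, on the x axis with the limma 95% interval as bars; genes run down the page by role and are coloured by it. Points lie on both sides of 0 in every role with more than 1 gene, and the intervals of Ctss, Arsa and Tpp1 alone lie wholly above 0.

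Cathepsins and related proteases cut proteins inside the lysosome. Of the 11 listed, 10 were tested, 4 above and 6 below 0, with a median of -0.061. Ctss, the gene of cathepsin S (chr3:95526786-95556405, GRCm38.p6), a protease that trims the invariant chain of MHC class II molecules, had the largest difference of the list. Its log2 ratio was 0.70, 0.88, 0.37 and 0.78 in miR-223KO livers, against -0.24, 0.15, 0.49 and -0.23 in WT livers. The lowest miR-223KO array (replicate 3) lay under the highest WT array (replicate 3), so the groups overlapped, and the other values lay apart. The means were 0.68 ± 0.22 in miR-223KO and 0.04 ± 0.35 in WT (SD, n = 4 each), a difference of 0.64 (95% interval 0.20 to 1.08; limma adjusted p = 0.98). Within the slides it was 0.83 and 0.45. Nearly all of it lay in the liver channel, 0.58 in Cy5 and -0.06 in the common Cy3 RNA.

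Ctsl encodes cathepsin L, a broad endopeptidase, and had the lowest difference of the list, -0.53 (SE 0.30, limma adjusted p = 0.98). Its log2 ratio was -0.17, 0.06, -1.15 and -0.17 in miR-223KO livers, against -0.39, 0.19 and 0.72 in WT livers, where the spot of replicate 4 was flagged. The groups overlapped, and miR-223KO replicate 3 and WT replicate 3, which share a slide, were the extremes. Within that slide, where 1 WT spot was left, the difference was -1.39, and within the other slide it was 0.04. Without miR-223KO replicate 3 the difference was -0.27, and without WT replicate 3 it was -0.26, whereas without WT replicate 1 it was -0.82.

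Ctsk, the collagen-cutting cathepsin K gene known from osteoclasts, lies on chromosome 3 near Ctss, at chr3:95499210-95509387. Its log2 ratio was 0.21, 0.07, 0.34 and -0.41 in miR-223KO livers, against 0.01, 0.18, 0.28 and -0.01 in WT livers. These groups overlapped almost wholly, with a difference of -0.06 (SE 0.20), on a probe well above background on 5 of 8 arrays. Ctsc, the gene of the dipeptidyl peptidase that activates granule proteases of myeloid cells, read 0.28, -0.40, 0.27 and 0.20 in miR-223KO livers, against -0.47, -0.18, 0.90 and -0.67 in WT livers. WT replicate 3 held its highest value, as it did among WT arrays for Ctss, and the difference was 0.19 (SE 0.29). Ctsf, a cysteine cathepsin gene, stood at -0.06 (SE 0.20), and Lgmn, which encodes the asparagine-specific protease legumain, at -0.06 (SE 0.28). For Lgmn the difference was 0.37 within slide 1 and -0.93 within slide 2, where a spot of each group was flagged. With flagged spots kept it was 0.17, and its sign turned under 10 of 26 alternatives.

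Ctsb and Ctsd encode the abundant cathepsins B and D, a cysteine and an aspartic protease, and the brighter probe of each lost spots to flags. On its dimmer probe Ctsb read 0.35, 0.37, -0.40 and -0.41 in miR-223KO livers, against 0.04, -0.06, 0.04 and 0.51 in WT livers. The first 2 miR-223KO arrays and the other 2 lay on either side of most WT values, and the difference was -0.16 (SE 0.23). With flagged spots kept, the brighter Ctsb probe gave -0.21 (SE 0.27). For Ctsd the dimmer probe gave -0.31 (SE 0.29) and the brighter probe, with flagged spots kept, -0.11 (SE 0.18). Ctsz, the gene of the carboxypeptidase cathepsin Z, gave 0.27 (SE 0.23) on its tested probe and 0.29 (SE 0.21) on the brighter one with flagged spots kept. Within slide 1 these were 0.49 and 0.60. Within slide 2 the tested probe gave 0.12, and with flagged spots kept the 2 probes gave -0.006 and -0.008. Ctsh, the aminopeptidase cathepsin H gene, could be read only with flagged spots kept. It gave -0.52, -0.58, -0.13 and -0.28 in miR-223KO livers, against -0.50, -0.61, -0.42 and -0.21 in WT livers. The Ctsh groups overlapped almost wholly, with a difference of 0.06 (SE 0.18).

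Ctsa encodes cathepsin A, a carboxypeptidase that also protects β-galactosidase and neuraminidase 1 in a complex, and its 4 probes did not give 1 direction. The brightest probe (A_52_P464315) read 0.81, 0.22 and -0.03 in miR-223KO livers, with replicate 3 flagged, against 0.04, 0.64, -0.45 and -0.55 in WT livers, a difference of 0.42 (SE 0.29). On the probe A_52_P637360 it was 0.30, 0.11, 0.10 and 0.02 in miR-223KO livers, against 0.68, 0.75, 0.55 and 0.09 in WT livers, a difference of -0.39 (SE 0.19). The remaining probes gave 0.34 and 0.16. No pair of Ctsa probes shared more than 6 bases in a row, so they read separate stretches of sequence. On the first probe the arrays of slide 1 read high in both groups, and on the other probe WT replicate 4 alone of the WT arrays read as low as miR-223KO.

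**Figure D2:**
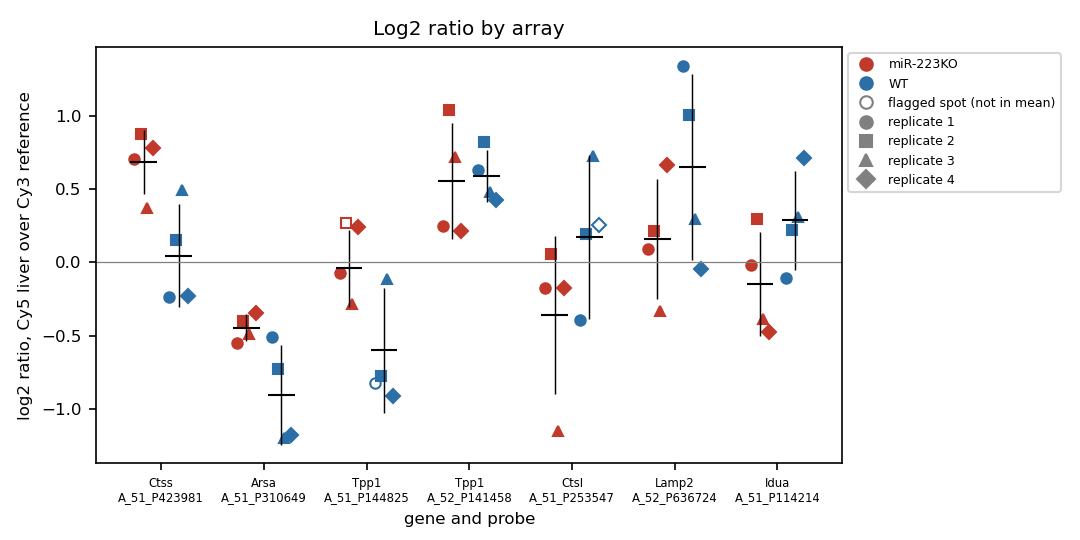
Log2 ratio of Cy5 liver over the common Cy3 RNA on the y axis for 7 probes of 6 genes, miR-223KO in red left of WT in blue, with a marker shape for each replicate number, the mean as a horizontal line and ± 1 SD as a vertical line. Open markers are flagged spots, which are not in the mean; the Ctss groups overlap only at replicate 3, and the Tpp1 probes differ in pattern.

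Of the listed genes 10 act on glycans and glycan-bearing lipids, and all were tested, 5 above and 5 below 0 with a median of -0.0027. Arsa encodes arylsulfatase A, which removes sulfate from the glycolipid sulfatide. Its log2 ratio was -0.55, -0.40, -0.49 and -0.34 in miR-223KO livers, against -0.51, -0.73, -1.20 and -1.18 in WT livers. The miR-223KO arrays lay close together and the WT arrays spread downward, and WT replicate 1 fell among the miR-223KO values. The means were -0.45 ± 0.09 in miR-223KO and -0.90 ± 0.34 in WT (SD, n = 4 each), a difference of 0.46 (SE 0.20; limma adjusted p = 0.98). Slide 1 carried little of it, 0.14, and slide 2 most, 0.77. In Cy5 the difference was 0.64 and in Cy3 0.19.

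Idua, the gene of the α-L-iduronidase that degrades heparan and dermatan sulfate, was lowest of this role, at -0.43 (SE 0.22). It read -0.02, 0.29, -0.39 and -0.47 in miR-223KO livers, against -0.11, 0.22, 0.31 and 0.71 in WT livers. The groups overlapped on slide 1, where the difference was 0.08, and lay apart on slide 2, where it was -0.94. Idua and Arsa thus differed most on the same slide and in opposite directions.

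Hexa, the α subunit gene of β-hexosaminidase, read -0.14, -0.23, 0.07 and 0.20 in miR-223KO livers, against 0.10, -0.32, -0.42 and -0.81 in WT livers. Its difference was 0.34 (SE 0.21), and WT replicate 1 lay among the miR-223KO values, as for Arsa. Gaa, which encodes the acid α-glucosidase of glycogen breakdown, gave -0.21, -0.08, -0.74 and -0.21 in miR-223KO livers, against -0.85, -0.46, -0.70 and -0.55 in WT livers. On 3 of 4 miR-223KO arrays it lay above all WT arrays, and replicate 3 lay among the WT values, for a difference of 0.33 (SE 0.19). Gla, the α-galactosidase A gene, differed by 0.0053 (SE 0.18), with miR-223KO values of 0.02 to 0.22 inside WT values of -0.12 to 0.46.

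Man2b1, the lysosomal α-mannosidase gene, gave -0.29 (SE 0.26) on its brightest probe and -0.32 on its next. That next probe read 0.55, 0.75, 0.76 and 0.69 in miR-223KO livers, against 0.96, 0.96 and 1.09 in WT livers, and there the groups lay apart. WT replicate 3 had been flagged on it, and with that spot kept, at 0.33, the groups overlapped and the difference was -0.15 (SE 0.20). Glb1, the β-galactosidase gene, gave -0.16 and -0.15 on its 2 tested probes. The brighter probe gave -0.64 within slide 1 and 0.32 within slide 2, and the other -0.04 and -0.25. The probes were thus alike in their averages and not slide by slide.

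For Arsb, Neu1 and Gusb the probes of a gene stood on both sides of 0. Arsb, the arylsulfatase B gene, read -0.21, -0.37, -0.15 and -0.29 in miR-223KO livers, against -0.37, -0.30, 0.03 and 0.13 in WT livers on the brightest probe, a difference of -0.13 (SE 0.18), and 0.06 on the next. Neu1, the sialidase gene, read -0.02, -0.35, -0.02 and -0.05 in miR-223KO livers, against 0.28, -0.44, 0.20 and -0.43 in WT livers, with differences of -0.01, 0.04 and -0.14 on 3 probes. All of these are within the SE. Gusb, the β-glucuronidase gene, read -0.07, -0.28, -0.04 and 0.14 in miR-223KO livers, against -0.18, -0.11, -0.09 and -0.33 in WT livers on the brighter probe, a difference of 0.12 (SE 0.18). Its other probe spread more widely, from -0.52 to 0.79 in miR-223KO and from -0.39 to 0.54 in WT, with a difference of -0.01.

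Lipa encodes lysosomal acid lipase, which frees cholesterol and fatty acids from lipoprotein lipids. Its tested probe read -0.31, -0.30, 0.31 and 0.39 in miR-223KO livers, against -0.08, -0.15, -0.24 and -0.05 in WT livers, a difference of 0.15 (SE 0.20). That probe was dim, well above background on 3 of 4 miR-223KO arrays and on 1 of 4 WT arrays, so most of its WT values stand at background. The brighter Lipa probe had 3 of 4 miR-223KO spots flagged, and with flagged spots kept it read -0.06, 0.23, 0.41 and 0.32 in miR-223KO livers, against -0.10, -0.24, -0.47 and -0.46 in WT livers. There the groups lay apart without overlap and the difference was 0.55 (SE 0.18; limma adjusted p = 0.977). In those values Cy5 differed by 0.28 and the common Cy3 RNA by -0.27. The authors' deposited table, which uses such spots and processed signals, gives 0.56 for that brighter Lipa probe. For the dim Lipa probe, flagged on 0 arrays, it gives 0.65, against the 0.15 found here. Why these 2 values differ was not tested.

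The other lipid-handling genes had smaller differences than that Lipa probe, and none passed. Galc, which encodes galactosylceramidase, differed by 0.07 (SE 0.19), Smpd1, the acid sphingomyelinase gene, by -0.02 (SE 0.26), and Asah1, the acid ceramidase gene, by -0.08 (SE 0.20). Psap, the precursor of the saposins that hand sphingolipids to these enzymes, could be read only with flagged spots kept. It gave 0.17, -0.12, -0.12 and -0.33 in miR-223KO livers, against -0.00, -0.12, -0.18 and -0.41 in WT livers. The Psap groups overlapped almost wholly, with a difference of 0.08 (SE 0.18).

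Tpp1, Ppt1 and Grn stand for protein turnover and are known from neuronal ceroid lipofuscinosis. Tpp1, the tripeptidyl peptidase 1 gene (chr7:105744811-105752282), differed by 0.56 (SE 0.25; limma adjusted p = 0.98) on its brighter probe. That probe (A_51_P144825) read -0.08, -0.29 and 0.24 in miR-223KO livers, against -0.78, -0.11 and -0.91 in WT livers, with miR-223KO replicate 2 and WT replicate 1 flagged. The groups overlapped at WT replicate 3. With flagged spots kept the difference was 0.69 (limma adjusted p = 0.977), yet more of it lay in Cy3 (-0.39) than in Cy5 (0.30). The other Tpp1 probe (A_52_P141458) read 0.25, 1.04, 0.72 and 0.21 in miR-223KO livers, against 0.63, 0.82, 0.48 and 0.43 in WT livers. On it the means were 0.56 ± 0.40 in miR-223KO and 0.59 ± 0.18 in WT (SD, n = 4 each), with a difference of -0.03 (SE 0.21), so the difference rested on 1 of 2 probes. With the mean of a gene's probes it was 0.24.

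Ppt1 encodes palmitoyl-protein thioesterase 1, which takes fatty acids off proteins, and differed by 0.14 (SE 0.24) and 0.18 on its tested probes. Grn, the progranulin gene, read -0.25, -0.15 and 0.20 in miR-223KO livers, with replicate 4 flagged, against -0.07, 0.06, -0.09 and 0.01 in WT livers. The WT values lay inside the miR-223KO range, with a difference of -0.04 (SE 0.19).

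**Figure D3:**
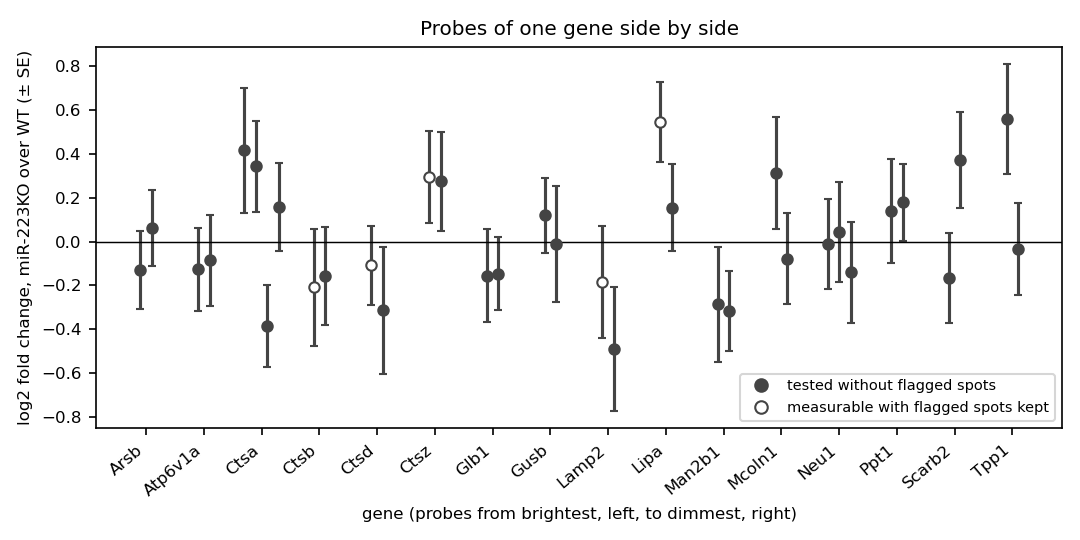
Log2 fold change, miR-223KO over WT, with ± SE on the y axis for each measured probe of the 16 genes with several, from the brightest probe on the left to the dimmest on the right within a gene. Filled points left flagged spots out and open points kept them; Arsb, Ctsa, Gusb, Mcoln1, Neu1, Scarb2 and Tpp1 have probes on both sides of 0.

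Lysosomal membrane proteins and the calcium channel gave no common direction, 1 above and 2 below 0 among 3 tested. Lamp2, a gene of the heavily glycosylated membrane lining with a part in autophagy, read 0.09, 0.21, -0.33 and 0.66 in miR-223KO livers, against 1.34, 1.00, 0.30 and -0.04 in WT livers. The WT arrays of slide 1 were the high ones, and the difference of -0.49 (SE 0.28) was -1.02 within slide 1 and 0.04 within slide 2. The smallest adjusted p that any listed gene reached under any alternative, 0.361, was this slide 1 value. A brighter Lamp2 probe with flagged spots kept gave -0.18 (SE 0.26). Lamp1, its paralogue, was read only with flagged spots kept, at -0.01, -0.22, 1.03 and 0.12 in miR-223KO livers, against -0.54, -0.62, 0.25 and 0.17 in WT livers. Its miR-223KO replicate 3 stood far above the rest, the other values overlapped, and the difference was 0.41 (SE 0.28).

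Scarb2 encodes LIMP-2, the receptor that carries β-glucocerebrosidase to lysosomes. Its brighter probe read -0.16, -0.37, -0.49 and -0.34 in miR-223KO livers, against -0.42, -0.30 and 0.20 in WT livers (replicate 1 flagged), a difference of -0.17 (SE 0.21). The dimmer probe, which shares 20 bases with the first, read -0.23, 0.74, 0.19 and 0.38 in miR-223KO livers, against 0.07, -0.09, -0.52 and 0.11 in WT livers, a difference of 0.37 (SE 0.22). The 2 probes had opposite signs on miR-223KO replicates 2, 3 and 4, and neither difference passed. Mcoln1, the gene of the lysosomal calcium channel TRPML1, read -0.28, -0.48, 0.55 and 0.76 in miR-223KO livers, against 0.04, -0.07, -0.20 and -0.48 in WT livers. The miR-223KO arrays of slide 2 were the highest and that of replicate 2 shared the lowest value with WT replicate 4, for a difference of 0.31 (SE 0.26). The second Mcoln1 probe gave -0.08.

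The 3 V-ATPase subunit genes tested lay 2 above and 1 below 0. Atp6v0d1, a subunit gene of the membrane part, differed by 0.25 (95% interval -0.30 to 0.80), with -0.37 within slide 1 and 0.60 within slide 2. Its difference was 0.55 without WT replicate 1, 0.09 without WT replicate 3, 0.11 without WT replicate 4 and 0.06 with flagged spots kept. Atp6v1b2 and Atp6v1a, of the part that splits ATP, differed by 0.16 (SE 0.19) and -0.13 (SE 0.19). Atp6v1b2 read -0.40, -0.07, 0.27 and -0.18 in miR-223KO livers, against -0.34, -0.41, -0.03 and -0.23 in WT livers. Its groups overlapped. Tfeb itself read -0.02, -0.24, 0.27 and 0.09 in miR-223KO livers, against 0.18, 0.08, -0.03 and -0.23 in WT livers, a difference of 0.03 (SE 0.18). Both Tfeb ranges were alike. A transcript level says nothing of where the TFEB protein lay.

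Beyond the listed genes, the rest of the lysosomal pathway was followed through lists chosen by function, and 0 of their members passed the test in limma. Of 26 other lysosomal hydrolases 16 lay above and 10 below 0, with a median of 0.055. Hgsnat, counted in this list though its product is an acetyltransferase of heparan sulfate breakdown, stood at -0.33, and the hyaluronidase gene Hyal1 at 0.30. Of 22 other lysosomal membrane proteins 16 lay above and 6 below 0, with a median of 0.11. The calcium and sodium channel gene Tpcn2 stood at 0.37, with its miR-223KO and WT values apart, as for 3.09% of all features. Laptm5, of blood cells, stood at 0.40. Of 15 other V-ATPase subunits 8 lay above and 7 below 0, with a median of 0.10. Atp6v1g2, a subunit isoform best known from brain, was the only 1 of these 3 lists at an unadjusted p under 0.05, at -0.73 ± 0.09 in miR-223KO and -0.12 ± 0.22 in WT (SD, n = 4 each). Its difference of -0.61 had a limma adjusted p of 0.98. The pump accessory gene Atp6ap1 stood at 0.30.

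Genes that tag hydrolases with mannose 6-phosphate or sort proteins to lysosomes were split, 6 above and 8 below 0 of 14 with a median of -0.024. Among them Gnptg, a subunit gene of the tagging enzyme, stood at 0.31, and Ap3d1, of the AP-3 adaptor, at 0.29. Of 9 inhibitors of cathepsins 6 lay above and 3 below 0, with a median of 0.12. Serpinb1a, which blocks neutrophil serine proteases, stood at -0.31 and the stefin gene Stfa3 at 0.29, while Cst7, Stfa1 and Stfa2 were never above background. Of 24 genes that control TFEB or act in autophagy 17 lay above and 7 below 0, with a median of 0.055. Mtor, the kinase that keeps TFEB out of the nucleus, stood at 0.45 (limma adjusted p = 0.98), and Rragd, a GTPase gene that TFEB induces, at -0.28. Ctse, the gene of cathepsin E, is not lysosomal in the main, is outside the list, and passed the test. It stood at 0.89 ± 0.44 (SD, n = 3) in miR-223KO, against -1.74 ± 0.34 (SD, n = 4) in WT. Its difference of 2.63 (SE 0.25) had a limma adjusted p of 0.000429.

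Markers of liver cell types are given beside these values, as a score per array, the mean log2 ratio of a list's tested genes minus that of all features. Over the 34 lysosomal genes the score was -0.0125, -0.116, -0.0962 and 0.0283 in miR-223KO livers, against -0.0334, -0.028, -0.0568 and -0.281 in WT livers. Only WT replicate 4 stood below the rest. Of 16 Kupffer cell markers 10 lay above and 6 below 0, and 0 passed the test. The 2 with the smallest p-values, Clec1b (0.56) and Csf1r (0.54), had groups apart, as did 3.09% of all features. The Kupffer score was 0.225, -0.194, 0.136 and -0.0602 in miR-223KO livers, against -0.402, -0.358, 0.32 and -0.268 in WT livers. WT replicate 3, which was the WT array highest for Ctss and Ctsc, had the highest Kupffer score of all 8. miR-223KO replicate 2, the array highest for Ctss, had the lowest Kupffer score of its group.

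Of 14 monocyte and lipid-associated macrophage markers 10 lay above 0, with Trem2 at 0.57 and Tyrobp at 0.46, and 0 passed, while Gpnmb, Mmp12 and Fabp5 were never above background. The score ran from -0.139 to 0.405 in miR-223KO livers, against -0.319 to 0.192 in WT livers. Of 12 endothelial markers 10 lay above 0, with Flt4 at 0.51 and Ptprb at 0.63. The endothelial score ran from -0.0475 to 0.0402 in miR-223KO livers, against -0.364 to -0.0493 in WT livers. These groups did not overlap but nearly touched, at miR-223KO replicate 1 (-0.0475) and WT replicate 3 (-0.0493). All 6 tested hepatocyte markers, of 16 on the array, lay below 0, with Fga at -0.82 and Alb at -0.66. Of the 16, 0 were never above background, and why the others had no test was not followed up. Their values with flagged spots kept are not given, so the hepatocyte count and score rest on the 6 tested. In limma 0 endothelial and 0 hepatocyte markers passed, with a smallest adjusted p of 0.98. The hepatocyte score was 0.709 to 0.997 in miR-223KO livers, against 1.16 to 1.98 in WT livers, without overlap. Alb and Fga being above background on all 8 arrays is what the label of liver implies. The part of these cell types in the difference of Ctss or of any other lysosomal gene was not tested.

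**Figure D4:**
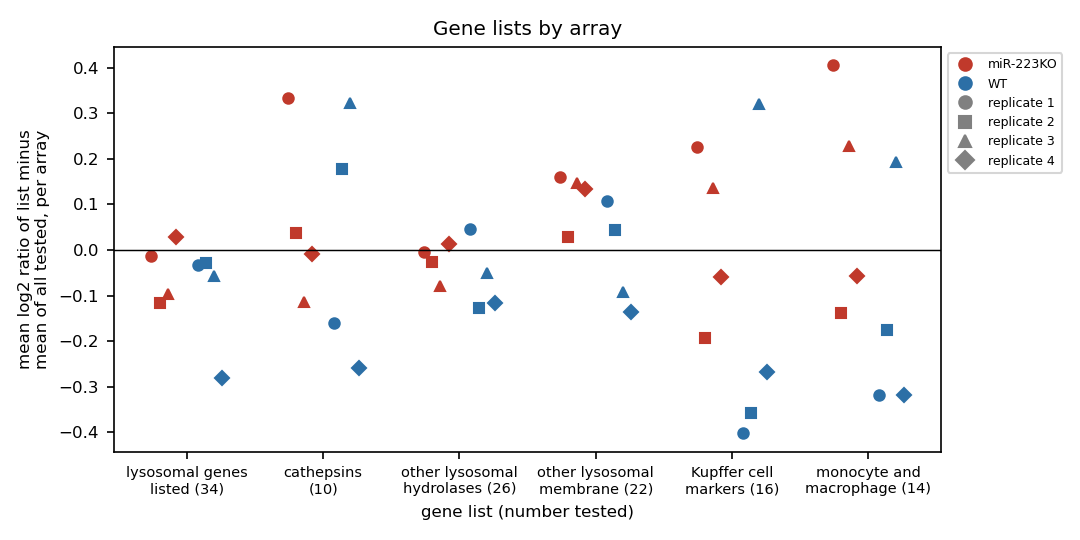
Score of each gene list on each array, the mean log2 ratio of its tested genes minus the mean of all features, on the y axis, with miR-223KO in red left of WT in blue and a marker shape for each replicate number. The 34 lysosomal genes lie between -0.281 and 0.0283 with overlapping groups, and WT replicate 3 is the highest array for Kupffer cell markers.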

How the data were processed

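RNA of 4 miR-223KO and 4 WT livers was compared on 8 Agilent 2-colour arrays, grouped by the labels' genotype. Per the file headers, each deposited scanner file gives spot and background intensity as medians, processed intensity and outlier flags, made with Feature Extraction 12.0.3.1. The authors' deposited table holds log2 ratios of the processed signals for 40646 probes and a log2 fold change, which equals the difference of its column means within 5.2e-07.

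Background was corrected with normexp (offset 50) and ratios with loess within arrays, in limma 3.58.1 under R 4.3.3. Outlier-flagged spots were left out of fits and means. Flagged local backgrounds were replaced by the array's median in that channel. A probe entered the test with Cy5 well above background on 4 or more of the 8 arrays and 3 or more unflagged values per group. The brightest tested probe stood for its gene, so some bright genes rest on a dimmer probe. limma (lmFit, eBayes, two-sided) compared the groups, and p-values were adjusted by Benjamini-Hochberg across 14693 genes plus 2060 probes without a name. Symbols were brought up to date through RefSeq for 1615 probes. Differences in Cy5 or Cy3 alone come after Aquantile normalisation with flagged spots kept, and depend on it. A further 3 probes, matched to Lamp2, Psap and Grn by accession but carrying no symbol in the deposited table, were flagged on 5 to 8 arrays and not used.

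Every listed gene is accounted for. Of each other list the genes past the test, or else those with the 2 smallest p-values, are named, and Ctse is named as a cathepsin outside the list. The genes and lists were chosen with earlier results of these data known. Tissue markers for the Cy3 RNA, and the alternatives that combine kept flags with another normalisation, were chosen after seeing the data. The fit was tested on simulated data with 16753 genes, 50 of them changed at each size. It recovered 0 of 50 at a log2 change of 0.5, 35 at 1, 47 at 2 and 49 at 3, with 8 false calls. In that simulation 200 genes were changed at once, whereas 2 features were called in the real data. The Benjamini-Hochberg cut is less strict when more features are called. The simulated shares are therefore not the recovery of the real test. Each of the 2 slides held 2 samples of each group and was scanned separately, so slide was tried as a block and within-slide values are given. Neutrophil, lymphocyte, stellate cell and bile duct markers are given under the closing observations.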

Additional observations from a re-analysis of the deposited data

Results flagged for a closer look

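Of 78 groups of 4 values (a tested probe in miR-223KO or in WT), 4 held an array far from the other 3 by Dixon's test, and chance flags about 1 in 20 groups. Asah1 on miR-223KO replicate 1 read -0.0554, above the other miR-223KO arrays. Ctsc on miR-223KO replicate 2 read -0.397, below the other miR-223KO arrays, and Neu1 on the same array read -0.346, also below. Ctsa on WT replicate 3, by its probe A_52_P672803, read 0.462, above the other WT arrays.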

How the results depend on the processing

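Beside the analysis reported, 26 other settings were tried, 3 of them chosen after seeing the data. Listed genes passing limma numbered 0 under all 26, and leaving out each replicate in turn also gave 0. Over all features 2 were called, and this became 4 with a normexp offset of 16. It became 1 with processed signals, median centring, the authors' deposited table, flagged spots kept, the mean of a gene's probes, or flagged spots kept with processed signals or with median centring. It became 0 within either slide, where fewer arrays were compared, and 2 to 3 leaving out a replicate. The median difference of the listed genes, -0.0027, became 0.11 with processed signals, 0.11 with median centring, 0.16 within slide 2, 0.11 with kept flags and processed signals and 0.23 with kept flags and median centring, and ran from -0.022 to 0.080 leaving out a replicate; the cause was not tested. Median centring moved the median of all features to 0.0812, and to 0.0937 with kept flags. The sign held under every alternative for 8 of 34 listed genes (Arsa, Atp6v1b2, Ctsa, Ctsc, Ctss, Ctsz, Gaa and Tpp1) and turned under at least 1 for 26. These signs are of the probe that stood for a gene or of the mean of its probes, and single other probes of Ctsa (-0.39) and Tpp1 (-0.03) had the opposite sign. Among the 8, Ctsc fell to 0.0029 without WT replicate 4 and Atp6v1b2 to 0.039 without miR-223KO replicate 3, so these signs held only narrowly. With flagged spots kept, 37 listed genes were tested, 22 above and 15 below 0 with a median of 0.0554, and 4 had an unadjusted p under 0.05 (Arsa, Ctss, Lipa and Tpp1), beside 4.72% of all features. Deviations of same-numbered arrays correlated at -0.006, 0.058, 0.006 and -0.027. Those of differently numbered arrays on the same slide ran from -0.071 to 0.054, so these values cannot show whether replicate numbers pair the samples. With the replicate block 0 listed genes and 2 of all features were called, with a median of 0.017 for the listed genes. Ctse was not called within the slides, at 2.64 and 2.55 (adjusted p of 0.0664 and 0.231). With 8 arrays, 95% intervals on the listed genes reached 0.37 to 0.65 to either side, which limits what could be called.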

Other observations

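Markers of the remaining liver cell types are given as values. Of 13 neutrophil markers, from the cells best known for miR-223, 6 lay above and 7 below 0, with a median of -0.03. S100a9, a calcium-binding protein gene of neutrophils, stood at 0.61 with miR-223KO and WT values apart, as for 3.09% of all features. Lcn2, an iron-scavenging protein gene that hepatocytes also express, stood at 0.82. Of 7 lymphocyte markers 3 lay above 0, with the B cell genes Ms4a1 at 0.40 and Ighm at -0.32, while the T cell genes Cd3d, Cd2 and Lck were never above background. Of 14 stellate cell and fibroblast markers 7 lay above and 7 below 0, with Pdgfrb at 0.24 and Col1a1 at 0.35. Of 9 cholangiocyte markers 2 lay above and 7 below 0, with Krt7 at -0.58 and Sox9 at -0.36. In limma 0 members of these 4 lists passed, with a smallest adjusted p of 0.98.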
